A study of Mus musculus with 12 samples.

Results

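Leukemia cells driven by the fusion MLL-NRIP3 were compared with leukemia cells driven by the fusion MLL-AF9, both lacking Rictor. These are 6 of the 12 arrays of the study: 3 of MLL-NRIP3 RictorΔ/Δ cells and 3 of MLL-AF9 RictorΔ/Δ cells, chosen by the genotype and mouse model in the sample labels. The other 6 arrays are 3 of each leukemia with wild-type Rictor, and they are used here only to ask which differences between the fusions were also there with Rictor intact. Both groups carry the Rictor deletion, so what separates them is the fusion and whatever else differed between the mouse models.

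The labels call every sample K+G– leukemia cells of the bone marrow and do not spell out the abbreviation. Sorting followed a first transplantation of bone marrow, when CD45.2+ cells had become most of the recipients' white blood cells, and peripheral blood is given as the host tissue. The labels name no strain, age, sex, Cre line or deleting agent, and do not say whether the sort was also gated on CD45.2, so the share of recipient cells is unknown. Whether the 3 arrays of each group stand for different mice is not stated. All p-values therefore measure only the spread between these arrays, which may be technical.

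MLL, encoded in mice by Kmt2a, is a chromatin protein that keeps homeobox genes active in blood stem cells. In leukemia its front part is joined to a partner protein: AF9, encoded by Mllt3, belongs to complexes that recruit the histone methyltransferase DOT1L and transcription elongation factors, whereas NRIP3 is a far rarer partner. Such fusions hold Hoxa genes and Meis1 at a high level in cells arrested early on the path to neutrophils and monocytes. Rictor is an essential subunit of the kinase complex mTORC2, which activates AKT, SGK and PKC kinases, and active AKT keeps FOXO transcription factors out of the nucleus.

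Several properties of the arrays bear on every result below. The median deposited intensity was 8.16 to 8.36 on the MLL-AF9 arrays and 13.6 to 14.2 on the MLL-NRIP3 arrays, so the models look as if they had been scaled separately, and model and array set cannot be told apart. The values were therefore quantile normalized across the 6 arrays, and all levels are normalized intensities unless stated otherwise. Xist, which silences 1 X chromosome in female cells, had deposited intensities of 53.6, 208 and 34.3 on the MLL-AF9 RictorΔ/Δ arrays and 2350 or more on the other 9 arrays of the study, while the Y-linked gene Eif2s3y was at 149 to 186 on the former and under 8 elsewhere. Fusion and sex of the cells thus cannot be told apart in this comparison, nor can Rictor deletion and sex within MLL-AF9, and genes on X and Y were left out. Of the wild-type arrays, MLL-NRIP3 control 1 and 2 stood apart, with hybridization control signals of 11.2 and 10.6 on the log2 scale against 8.96 to 9.53 on the other 10 arrays. Their ratios of 5′ to 3′ signal, a sign of RNA quality, were also low, at 0.562 and 0.738 for Gapdh against 0.881 to 1.09 and at 0.448 and 0.474 for Actb against 0.521 to 0.714. They enter only the comparison with Rictor intact and the difference of differences.

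The targeted gene and the fusion partners gave no clear check of the labels. Rictor, measured with its brightest probe set, was at 95.1, 106 and 119 in MLL-AF9 and at 67.5, 82.5 and 110 in MLL-NRIP3 cells. The groups overlapped, with a log2 difference of -0.27 ± 0.15 (SE, n = 3 arrays a group; adjusted p = 0.17 by limma over all genes tested). In deposited intensities, this probe set did not separate deleted from wild-type cells in either model. Of the dimmer Rictor probe sets, 1 was at 24.8, 24.5 and 26.5 in Rictor-deleted against 30.6, 32.9 and 29.3 in wild-type MLL-AF9 cells and another at 15.3, 19.4 and 14.8 against 21.3, 21.3 and 23.2, lower without overlap, whereas in MLL-NRIP3 cells both overlapped. No probe set can be tied to the deleted part, since the labels do not say which part of the gene was deleted. A further Rictor probe set lay apart in the other direction, at normalized 14.2, 16.5 and 14.5 in MLL-AF9 against 111, 108 and 54.3 in MLL-NRIP3 cells. Averaged over its 5 probe sets, Rictor came out at 0.40 (adjusted p = 0.0043), and its brightest probe set without the third MLL-NRIP3 array at -0.43 (adjusted p = 0.0081). Nrip3 lay at the floor, under 6 on every array, and was not tested. Mllt3 was low throughout, at 5.99, 5.52 and 4.84 in MLL-AF9 and at 15.2, 10.8 and 28.2 in MLL-NRIP3 cells (log2 difference 0.63 ± 0.16, adjusted p = 0.0096), and a 3′ probe set cannot distinguish a fusion transcript from the normal gene. Kmt2a did not pass the test under quantile normalization (0.12, adjusted p = 0.40). It was called with the values as deposited (0.615, adjusted p = 0.00085) and with arrays centred on their medians (0.311, adjusted p = 0.035), where the medians of all genes were 0.46 and 0.15.

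Most of the measured genes differed between the fusions. Of 12224 genes tested, 6807 (55.7%) were called, meaning an adjusted p under 0.05 in limma's moderated fit of the 6 arrays: 3777 were higher in MLL-NRIP3 (30.9% of genes tested) and 3030 lower (24.8%). Most of these differences were small, with a median size of 0.48 on the log2 scale. At least 2-fold differences were called for 911 genes (7.45%), of which 490 were higher (4.01%) and 421 lower (3.44%). The intensities of the groups did not overlap for 6725 of the genes called. These calls rest on the brightest probe set of a gene. For 3157 called genes a further probe set could be tested. All probe sets had the same sign in 1930 of them, and in 560 another probe set was called in the opposite direction. The 560 include 8 named genes: Mcm3, Hspa8, Tsc1, Ccnt2, Smc2, Chaf1b, Btg1 and Tapbp. The balance of directions rests on the scaling: with quantile normalization 55.5% of calls were higher in MLL-NRIP3 and the median difference of all genes was 0.04, with arrays centred on their medians 68.2% (4796 higher, 2238 lower; median 0.15), and with the values as deposited 90.9% (8684 higher, 870 lower; median 0.46). Counts for gene groups are therefore read against these all-gene shares, and a group median is set beside the all-gene median. Differences are on the scale of log2(intensity + 16), which understates the fold change of dim genes.

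The largest differences in either direction fell into a few recognisable groups, shown array by array in the plot of the 30 genes with the largest differences. Imprinted and immediate early genes led the increases, and granule proteins of neutrophils led the decreases.

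**Figure D1:**
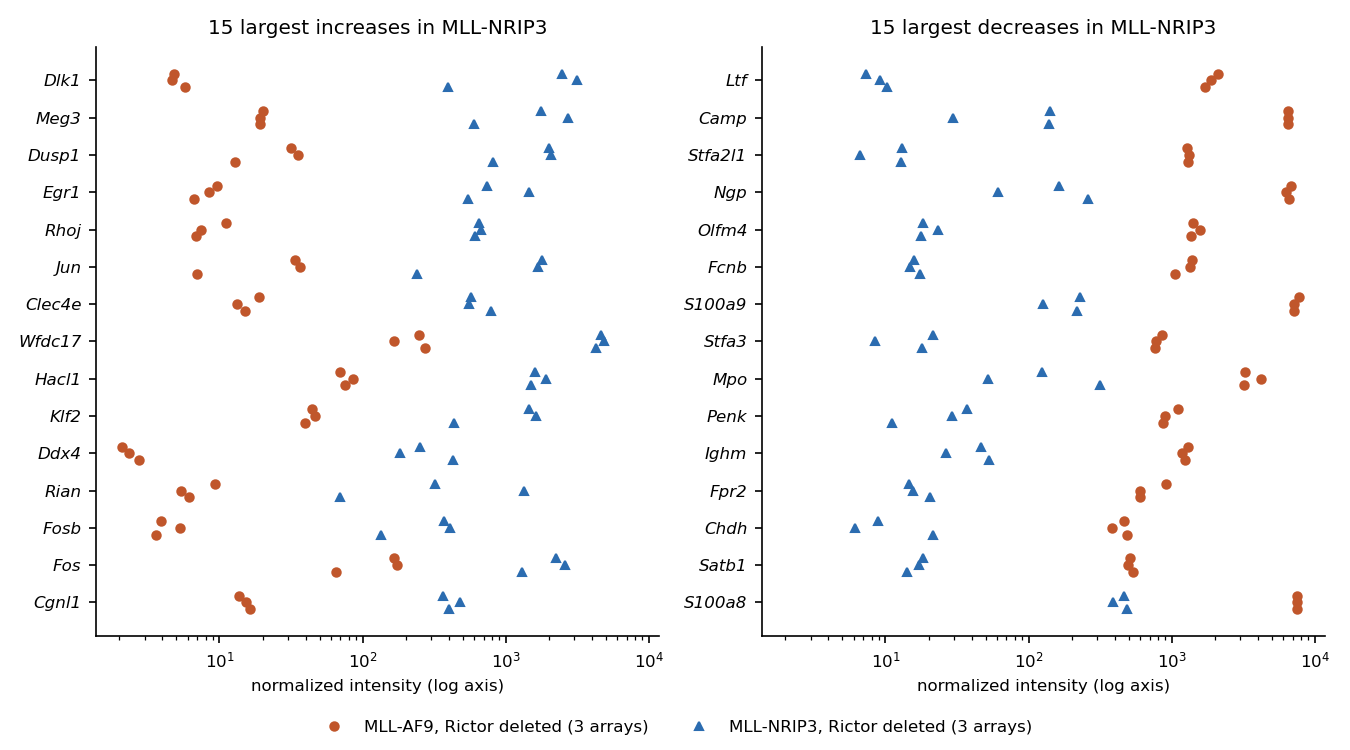
Normalized intensity (log axis) of the 15 genes with the largest increases (left) and the 15 with the largest decreases (right) in MLL-NRIP3 against MLL-AF9 cells, both Rictor-deleted, with 1 point for each of the 3 arrays of a group. The points of the groups lie apart for all 30 genes because genes were chosen for that; Ltf is at 7.26 to 10.2 on the MLL-NRIP3 arrays and at 1720 to 2120 on the MLL-AF9 arrays.

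Dlk1 had the largest increase. It encodes a membrane protein of the Notch ligand family that is expressed from the paternal copy in fetal tissues, and its neighbours Meg3 and Rian on chromosome 12 are noncoding RNAs expressed from the maternal copy. Dlk1 was at 4.78, 4.67 and 5.71 in MLL-AF9 cells, which is the floor of the array, and at 2480, 3130 and 396 in MLL-NRIP3 cells (log2 difference 6.13 ± 0.66, adjusted p = 0.00017). Meg3 stood at 20.0, 19.3 and 19.3 against 1760, 2720 and 597 (5.34 ± 0.46, adjusted p = 5.8e-05), and Rian at 9.34, 5.38 and 6.11 against 323, 1340 and 69.6 (3.89 ± 0.82, adjusted p = 0.0044). All 3 transcripts were near background on every MLL-AF9 array and were lowest on the third MLL-NRIP3 array. That array moved the sizes by more than 1.5-fold: without it the differences were 7.02 for Dlk1, 5.95 for Meg3 and 4.87 for Rian, whereas without the second array Dlk1 came to 5.54 and Rian to 2.84. Averaged over its probe sets, Meg3 came to 3.10. Of the 10 tested members of a list of fetal program genes, 5 were higher (Dlk1, Meg3, Cdkn1c, Igf2bp1 and Igf2bp3), 2 lower (Plagl1 and Arid3a) and 3 not called, with a median of 0.23. These are 50% higher and 20% lower, against 30.9% and 24.8% of all genes. Cdkn1c, an imprinted inhibitor of cyclin-dependent kinases, was at 21.6, 27.1 and 21.9 against 64.6, 85.1 and 101 (1.32 ± 0.14, adjusted p = 0.00018). The fetal RNA-binding protein gene Igf2bp1 and the imprinted gene Plagl1 were dim in both groups and differed by 0.32 and -0.30.

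Immediate early genes, which cells switch on within minutes of a stimulus or of handling, were the second group of large increases. Dusp1, a phosphatase that turns off MAP kinases, was at 31.6, 35.2 and 12.9 in MLL-AF9 and at 1990, 2060 and 820 in MLL-NRIP3 cells (5.20 ± 0.36, adjusted p = 2.2e-05). The zinc finger factor Egr1 was at 9.66, 8.48 and 6.61 against 735, 1450 and 549 (5.14 ± 0.30, adjusted p = 1.1e-05). Jun, a subunit of the AP-1 factor, was at 33.8, 36.7 and 6.92 against 1790, 1670 and 238 (4.55 ± 0.71, adjusted p = 0.0011). The third array was the lowest of its group for Dusp1, Egr1 and Jun in both leukemias, and leaving out the third MLL-NRIP3 array raised the Jun difference to 5.46. Fos and Fosb, the partners of Jun in AP-1, differed by 3.81 ± 0.36 (adjusted p = 9.1e-05) and 3.84 ± 0.34 (adjusted p = 7.2e-05). Fos was well above the floor in MLL-AF9 cells too, at 165, 175 and 65.2 against 2260, 2580 and 1290. Klf2, a factor of quiescent lymphocytes and endothelium and a FOXO target, was at 44.0, 46.2 and 39.3 against 1450, 1620 and 432 (4.12 ± 0.43, adjusted p = 0.00014).

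Of the 29 tested members of the immediate early list, 18 were called higher in MLL-NRIP3 (62.1%, against 30.9% of all genes), 4 lower (13.8%, against 24.8%) and 7 not called. The median difference was 1.05, and 14 of the 18 were at least 2-fold. Socs3, an inhibitor of JAK and STAT signalling, was at 2.97, 3.86 and 2.56 against 49.0, 51.3 and 71.4 (1.92 ± 0.11, adjusted p = 1.2e-05). Zfp36, which destabilises inflammatory mRNAs, was at 98.4, 118 and 99.2 against 509, 535 and 348 (1.97 ± 0.16, adjusted p = 4.3e-05), and Ier3 at 59.7, 52.1 and 51.3 against 191, 206 and 162 (1.52 ± 0.11, adjusted p = 2.6e-05). The 4 members that were lower were Fosl2, Myc, Dusp6 and Spry1, at -1.02, -0.74, -0.57 and -0.22. No label records how long the cells of each model were held before lysis, and its part in these values was not tested.

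Sequence before the start is shown for 1 gene of this list for each of 2 regulatory motifs, which were chosen after the values were known; both genes were called higher. Of 29 tested immediate early genes 25 had a promoter in the RefSeq table (GRCm38.p6), and the 250 bases before the start were searched on both strands. The cyclic AMP response element TGACGTCA, which reads the same on both strands, lay in 2 of the 25 (Dusp1 and Btg2; 8% against 1.62% of 27025 promoters), and the CArG box of serum response factor in 2 (Zfp36 and Dusp5; against 1.4% of all). Dusp1 and Zfp36 were called higher, whereas Btg2 and Dusp5, at -0.69 and -0.17, were not called. A match describes these letters and is not evidence of binding. The stretches run 5′ to 3′ on the gene's strand with the motif in capitals.
Dusp1, chr17:26508562-26508661, minus strand: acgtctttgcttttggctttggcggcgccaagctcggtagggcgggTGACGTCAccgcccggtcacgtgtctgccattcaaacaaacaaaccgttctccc
Zfp36, chr7:28379231-28379332, minus strand: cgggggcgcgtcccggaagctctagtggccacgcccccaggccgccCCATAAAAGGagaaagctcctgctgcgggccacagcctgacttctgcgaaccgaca

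The remaining large increases had no shared theme. Wfdc17, a small secreted protein of macrophages and activated myeloid cells, was among the brightest transcripts of MLL-NRIP3 cells, at 4610, 4890 and 4300 against 249, 167 and 274 (4.25 ± 0.16, adjusted p = 1.2e-06). Clec4e, the receptor Mincle that senses mycobacterial lipids and dying cells, was at 18.9, 13.3 and 15.1 against 576, 552 and 783 (4.35 ± 0.14, adjusted p = 7e-07). Hacl1, a peroxisomal enzyme that shortens branched and hydroxy fatty acids, was at 69.1, 85.2 and 75.8 against 1600, 1900 and 1510 (4.18 ± 0.10, adjusted p = 1.9e-07). The groups lay far apart for all 3, with little spread among arrays. Rhoj, a small GTPase of endothelial cells, differed by 4.75 ± 0.10 (adjusted p = 7.4e-08), Cgnl1, a cell junction protein, by 3.79 ± 0.11 (adjusted p = 6.3e-07), and Ddx4, an RNA helicase of germ cells, by 3.96 ± 0.25 (adjusted p = 1.5e-05). Averaged over its probe sets, Cgnl1 came to 1.21. Ddx4 was at 2.07, 2.33 and 2.76 in MLL-AF9 cells, the floor, against 253, 182 and 425.

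The decreases were led by proteins that neutrophils pack into granules late in their maturation. Ltf, the iron-binding protein lactoferrin of secondary granules, was at 2120, 1880 and 1720 in MLL-AF9 cells and at 7.26, 9.13 and 10.2 in MLL-NRIP3 cells (log2 difference -6.27 ± 0.10, adjusted p = 3.9e-08). Ngp, the neutrophilic granule protein, was at 6850, 6280 and 6580 against 164, 60.9 and 262 (-5.39 ± 0.39, adjusted p = 2.6e-05). S100a9, a subunit of calprotectin, the main cytosolic protein of neutrophils, was at 7750, 7100 and 7100 against 227, 126 and 217 (-5.19 ± 0.18, adjusted p = 1e-06). Every MLL-NRIP3 array lay far below every MLL-AF9 array for these granule genes. S100a8, the other calprotectin subunit, was at 7480 on all 3 MLL-AF9 arrays against 464, 387 and 483 (-4.03 ± 0.08), and Camp, which encodes cathelicidin, at 6480 on all 3 against 142, 29.7 and 139 (-5.97 ± 0.42). The identical values come from quantile normalization, which gives probe sets of equal rank the same value, so the spread of S100a8 and Camp is understated.

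Of the 29 tested genes on a list of mature neutrophil genes, 25 were called lower in MLL-NRIP3 (86.2%, against 24.8% of all genes), 2 higher and 2 not called. The median difference was -2.14, and 21 of the 25 were at least 2-fold lower. Stfa2l1 and Stfa3, stefins that inhibit cysteine proteases, differed by -5.63 ± 0.11 (adjusted p = 7.4e-08) and -4.69 ± 0.15 (adjusted p = 7e-07). Olfm4, a marker of a neutrophil subset, was at 1400, 1580 and 1370 against 18.2, 23.3 and 17.8 (-5.36 ± 0.09, adjusted p = 5.2e-08). Fpr2, a receptor for bacterial formyl peptides, was at 911, 596 and 599 against 14.7, 15.6 and 20.4 (-4.42 ± 0.17, adjusted p = 1.3e-06), and the integrin subunit Itgb2l at 318, 278 and 250 against 11.1, 8.42 and 11.4 (-3.50 ± 0.11, adjusted p = 6.8e-07; -1.96 over the mean of its probe sets). The 2 members that were higher were Clec4e and its neighbour Clec4d (2.00 ± 0.11, adjusted p = 8.9e-06), lectin receptors that macrophages also express, and the 2 not called were Csf3r, the receptor of G-CSF, and Chil3. In bulk cells, fewer cells of a type cannot be told apart from less of these RNAs in each cell; all samples are labelled as sorted K+G–, and how that gate acted in each model was not tested. The summed intensity of 8 defining neutrophil markers was 32800 to 34900 on the MLL-AF9 arrays and 1310 to 1730 on the MLL-NRIP3 arrays, and among them Ltf and Mmp8 were at the floor in MLL-NRIP3 cells.

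Promoters of the neutrophil genes were searched for the pattern TTGCNNAA on both strands, a form of the site bound by C/EBP factors, which drive granule genes. It lay in the 250 bases before the start of 7 of the 26 tested list members that had a promoter in the table (26.9%), against 9.55% of all 27025 promoters. The 7 were Ltf, Ngp, S100a9, Lcn2, Mmp8, Anxa1 and Clec4e, of which Clec4e moved opposite to the rest, so the pattern was not limited to genes that were lower. The 3 with the largest decreases are shown, 5′ to 3′ on the gene's strand with the match in capitals (GRCm38.p6).
Ltf, chr9:111019171-111019270, plus strand: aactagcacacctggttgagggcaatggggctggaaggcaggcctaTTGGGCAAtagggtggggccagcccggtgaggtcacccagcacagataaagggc
Ngp, chr9:110419624-110419723, plus strand: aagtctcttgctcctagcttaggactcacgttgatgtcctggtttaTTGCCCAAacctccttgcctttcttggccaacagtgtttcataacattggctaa
S100a9, chr3:90695904-90695971, minus strand: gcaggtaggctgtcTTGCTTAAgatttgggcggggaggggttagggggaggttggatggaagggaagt

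Genes of the earlier, primary granules did not move as a block. Of 17 tested, 6 were higher (35.3%, against 30.9% of all genes), 6 lower (35.3%, against 24.8%) and 5 not called, with a median of 0.01. Mpo, the peroxidase of primary granules, was at 3270, 4200 and 3210 in MLL-AF9 cells against 124, 52.1 and 314 (-4.60 ± 0.47, adjusted p = 0.00014), and Fcnb, a ficolin that binds bacterial sugars, at 1380, 1350 and 1060 against 15.9, 14.8 and 17.5 (-5.31 ± 0.11, adjusted p = 7.4e-08). Ctsg, the granule protease cathepsin G, went the other way, at 1570, 2040 and 1630 against 4830, 4120 and 4960 (1.41 ± 0.11, adjusted p = 3.9e-05). Mpo and Ctsg are made at the same stage, and here they separated the leukemias in opposite directions without overlap. Hdc, the histamine-forming enzyme of basophils and their precursors, was at 17.6, 17.0 and 14.1 against 405, 284 and 437 (3.58 ± 0.15, adjusted p = 2.6e-06). The sum over 5 promyelocyte markers was 13500 to 16700 in MLL-AF9 and 11800 to 12000 in MLL-NRIP3 cells.

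**Figure D2:**
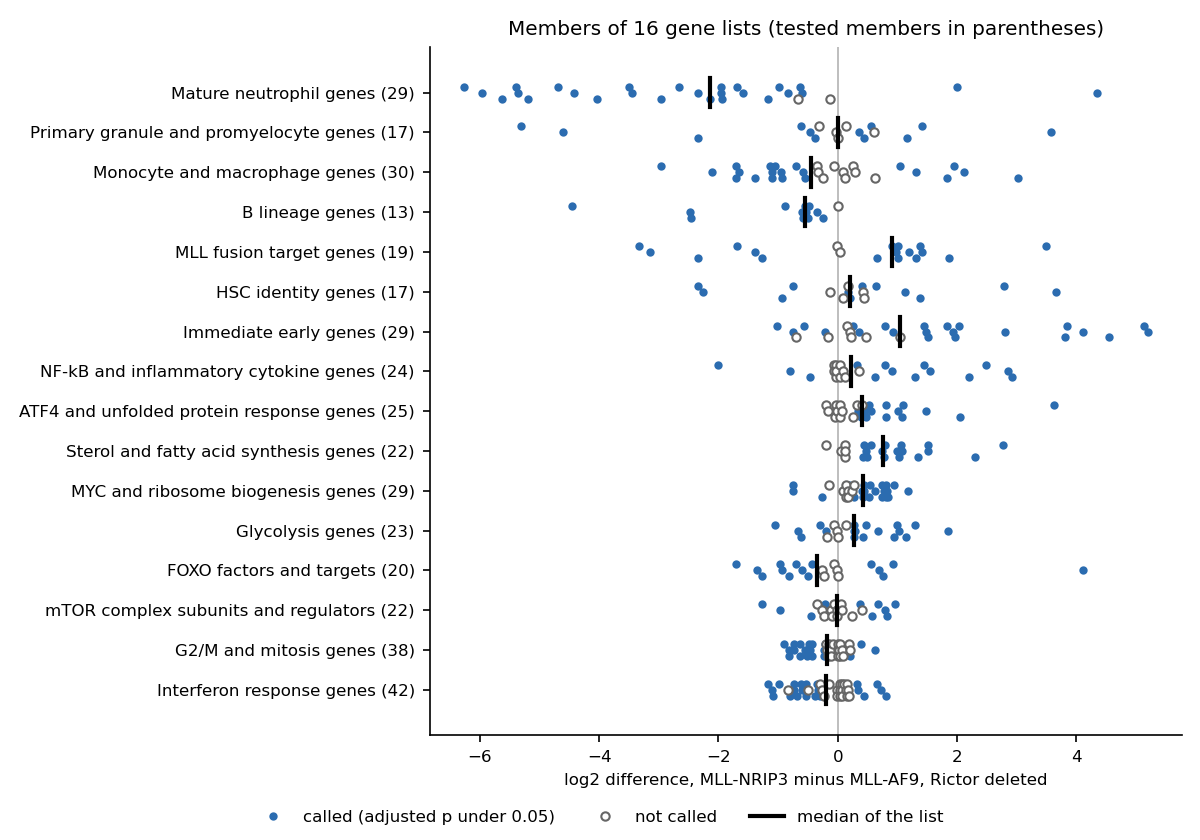
Log2 difference (MLL-NRIP3 minus MLL-AF9, Rictor deleted) of each tested member of 16 gene lists. Filled points passed an adjusted p of 0.05, open points did not, and the bar marks the median, which runs from -2.14 for mature neutrophil genes to 1.05 for immediate early genes; the median of all genes was 0.04.

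Of 30 tested monocyte and macrophage genes, 15 were lower (50%, against 24.8% of all genes), 6 higher (20%) and 9 not called, with a median of -0.45. With the values as deposited 13 were lower and 11 higher, with a median of -0.08 against 0.46 for all genes. The M-CSF receptor Csf1r was at 1520, 1430 and 1450 in MLL-AF9 cells against 461, 311 and 245 (-2.11 ± 0.19, adjusted p = 6.9e-05), and the pore-forming protein Mpeg1 at 684, 568 and 612 against 68.3, 46.6 and 85.2 (-2.97 ± 0.17, adjusted p = 8.8e-06). Ccr2, the chemokine receptor of inflammatory monocytes, was higher instead, at 30.3, 36.2 and 40.1 against 272, 448 and 535 (3.03 ± 0.22, adjusted p = 2.6e-05; 1.54 over the mean of its probe sets). The macrophage complement genes C1qa and C1qb were dim in MLL-AF9 cells, at 27.1 to 32.4, and near the floor in MLL-NRIP3 cells, at 3.40 to 8.69. The sum over 7 monocyte and macrophage markers was 1640 to 1760 against 901 to 932. Of the antigen presentation genes, H2-Aa (258, 191 and 285 against 14.7, 9.48 and 17.7; -3.11 ± 0.16) and the invariant chain gene Cd74 (-1.65 ± 0.10) were lower, whereas H2-DMa, which loads peptides, was higher (1.68 ± 0.10; 1.10 over the mean of its probe sets).

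B lineage genes were lower with hardly an exception, most of them by less than 2-fold. Of 13 tested, 12 were called lower (92.3%, against 24.8% of all genes), 0 higher, and Igll1 was not called. The median was -0.55, and 3 of the 12 were at least 2-fold lower. A further 6 listed genes with a probe set were not tested. Genes had to reach a mean level of 7.6 over the 6 arrays, so a gene at the floor in MLL-NRIP3 could enter through MLL-AF9 alone. Cd79a did so, at 21.8, 28.2 and 25.9 against 6.6, 6.11 and 6.21, whereas Ighm and Cd79b lay above that level on every array. The share of 92.3% is therefore not independent of the filter. Ighm, the heavy chain of IgM, was at 1290, 1170 and 1240 against 46.5, 26.6 and 53.1 (-4.46 ± 0.17, adjusted p = 1.2e-06; -2.04 over the mean of its probe sets), and the B cell receptor subunit Cd79b at 202, 160 and 199 against 23.4, 16.4 and 22.7 (-2.46 ± 0.12, adjusted p = 5.1e-06). The defining B cell markers were dim in both leukemias: Cd79a, Pax5 and Ms4a1 summed to 58.6 to 65.2 in MLL-AF9 and 19.9 to 24.5 in MLL-NRIP3 cells. Vpreb3, a surrogate light chain of B cell precursors, was at 126, 83.0 and 141 against 7.88, 6.43 and 7.73 (-2.48 ± 0.16, adjusted p = 1.7e-05). Satb1, a chromatin organiser of lymphoid cells and stem cells, was at 511, 498 and 537 against 18.3, 17.1 and 14.1 (-4.03 ± 0.09, adjusted p = 7.9e-08). Penk, which encodes the precursor of enkephalin peptides, and Chdh, a mitochondrial enzyme of choline breakdown, were lower as well, by -4.59 ± 0.23 (adjusted p = 4.8e-06) and -4.06 ± 0.19 (adjusted p = 3.5e-06). Markers of T and NK cells (sums of 20.5 to 22 against 18.4 to 22), erythroid cells (19.2 to 21.8 against 22.5 to 26.0) and stroma (17.4 to 22.9 against 18.5 to 20.9) were near the floor in both.

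The mast cell, basophil and eosinophil genes that could be tested went both ways. Of 11 tested, 5 were higher (Hdc, Mcpt8, Ms4a2, Kit and Tpsb2), 4 lower (Il17rb, Prg3, Prg2 and Siglecf) and 2 not called (Cpa3 and Gata2), with a median of 0.23. These are 45.5% higher and 36.4% lower, against 30.9% and 24.8% of all genes. A further 9 with a probe set were dim or sex-linked and not tested, among them Fcer1a (2.9 to 4.75) and Epx (4.3 to 5.88). The sum over 7 markers of these cells overlapped, at 517 to 674 in MLL-AF9 and 413 to 1700 in MLL-NRIP3 cells. Mcpt8, a protease of basophils, was at 29.1, 29.3 and 23.3 against 165, 103 and 126 (1.75 ± 0.15, adjusted p = 6.7e-05). The eosinophil granule genes Prg2 and Prg3 were at 110, 102 and 115 against 34.9, 24.9 and 29.1 (-1.46 ± 0.11, adjusted p = 2.9e-05) and at 148, 86.8 and 151 against 31.7, 26.0 and 24.3 (-1.71 ± 0.19, adjusted p = 0.00019). The mast cell protease Cpa3 overlapped between the groups, at 337, 279 and 369 against 791, 224 and 1410 (adjusted p = 0.18), with the second MLL-NRIP3 array lowest; without that array it was called at 1.66 (adjusted p = 0.0014).

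Among genes that MLL fusions are known to keep active, 11 of 19 tested were higher in MLL-NRIP3 (57.9%, against 30.9% of all genes). Lower were 6 (31.6%, against 24.8% of all genes) and not called 2, with a median of 0.90. The share that was lower thus lay near that of all genes. Hoxa5 showed the smallest p, at 56.0, 63.7 and 62.4 in MLL-AF9 against 808, 831 and 901 in MLL-NRIP3 cells (3.49 ± 0.08, adjusted p = 9.9e-08). Meis1, the homeobox cofactor of Hoxa proteins, was at 115, 123 and 132 against 337, 323 and 382 (1.38 ± 0.09, adjusted p = 1.7e-05), and Cdk6, a cyclin D kinase, at 1630, 1670 and 1680 against 3190, 3540 and 3370 (1.01 ± 0.06, adjusted p = 7.7e-06). Hoxa9, a marker of these leukemias, was bright in both, at 1200, 1360 and 1300 against 2780, 2890 and 3270. Other targets were lower, and Mecom and Eya1 lay near the floor in MLL-NRIP3 cells. Mecom, which encodes the stem cell factor EVI1, was at 83.2, 109 and 96.5 against 6.42, 6.44 and 5.33 (-2.34 ± 0.10, adjusted p = 2.6e-06), Eya1, a transcriptional phosphatase, at 148, 207 and 184 against 6.14, 5.84 and 6.11 (-3.14 ± 0.12, adjusted p = 1.4e-06), and the MADS box factor Mef2c at 608, 581 and 588 against 31.8, 57.4 and 46.1 (-3.34 ± 0.14, adjusted p = 2.6e-06). Hoxa5 and Meis1 on one side and Mecom, Eya1 and Mef2c on the other separated the fusions in opposite directions, with no overlap of arrays. Of 21 cofactors of MLL, DOT1L and the elongation complex, 4 were higher (Wdr5, Rbbp5, Mllt3 and Eaf1), 4 lower (Aff1, Ell, Ccnt2 and Mllt6) and 13 not called, none of them 2-fold. The share called was 38.1%, against 55.7% of all genes.

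Stem cell and growth factor receptor genes also went both ways. Kit, the receptor of stem cell factor, was at 165, 186 and 165 in MLL-AF9 and at 470, 327 and 521 in MLL-NRIP3 cells (1.25 ± 0.16, adjusted p = 0.00035), and the receptor tyrosine kinase Flt3 at 37.3, 34.7 and 38.7 against 345, 304 and 330 (2.69 ± 0.09, adjusted p = 6.8e-07). Angpt1, a ligand of the Tie2 receptor made by stem cells and stroma, was at 21.7, 10.6 and 22.9 against 439, 304 and 520 (3.65 ± 0.21, adjusted p = 1.1e-05; 2.19 over the mean of its probe sets). Prom1, the surface protein CD133, was lower, at 338, 362 and 265 against 44.4, 60.5 and 56.9 (-2.27 ± 0.14, adjusted p = 1.2e-05), as was Il17rb, a receptor of IL-25, at 134, 94.8 and 155 against 6, 6.73 and 5.92 (-2.67 ± 0.15, adjusted p = 9.6e-06). Of 17 stem cell identity genes 8 were higher (47.1%), 4 lower (23.5%) and 5 not called (median 0.20). Of 21 receptors 7 were higher (33.3%), 7 lower (33.3%) and 7 not called (median 0.11). Of all genes 30.9% were higher and 24.8% lower. Ptprc, which encodes the leukocyte antigen CD45, was near-equal at 1760, 1870 and 1950 against 1660, 1540 and 1560 (-0.22 ± 0.06, adjusted p = 0.014), and its direction turned with the values as deposited (0.24) and with the mean of its probe sets (0.13). Without the third MLL-AF9 array the Ptprc difference of -0.19 was not called (adjusted p = 0.064).

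Sterol and fatty acid synthesis genes were higher as a group. Of 22 tested, 17 were higher (77.3%, against 30.9% of all genes), 0 lower and 5 not called (Fdps, Fdft1, Mvd, Acly and Stard4), with a median of 0.76. Sqle, which makes squalene epoxide on the way to cholesterol, was at 17.8, 13.9 and 11.1 against 126, 142 and 131 (2.31 ± 0.11, adjusted p = 3.3e-06). The fatty acid elongase Elovl6 was at 8.07, 8.39 and 6.83 against 182, 186 and 88.6 (2.76 ± 0.23, adjusted p = 5.5e-05), and Idi1, an isomerase of the mevalonate pathway, at 68.3, 74.2 and 68.5 against 211, 217 and 181 (1.34 ± 0.09, adjusted p = 2.3e-05). Of 25 genes of the ATF4 and unfolded protein responses, which raise amino acid supply and chaperones under stress, 14 were higher (56%), 0 lower and 11 not called, with a median of 0.41. They included the serine synthesis enzyme Psat1 (211, 246 and 241 against 898, 1010 and 1120; 2.04 ± 0.10, adjusted p = 3.5e-06), the asparagine synthetase Asns (1.48 ± 0.10, adjusted p = 2.5e-05) and Atf4 itself (0.81 ± 0.06, adjusted p = 3e-05; 0.27 over the mean of its probe sets). Vldlr, a lipoprotein receptor on the same list, was at 6.77, 4.84 and 4.53 against 247, 232 and 266 (3.63 ± 0.09, adjusted p = 2.3e-07).

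Growth and metabolic genes shifted by smaller amounts. Of 29 MYC and ribosome biogenesis genes 18 were higher (62.1%), 3 lower and 8 not called (median 0.43). The pyrimidine synthesis enzyme Cad was at 126, 133 and 136 against 236, 246 and 241 (0.80 ± 0.07, adjusted p = 7.3e-05) and Odc1, of polyamine synthesis, at 347, 421 and 383 against 874, 1040 and 772 (1.18 ± 0.12, adjusted p = 0.00011), while the 3 that were lower were Myc (-0.74), Mycn (-0.74) and Rrs1 (-0.27). Of 23 glycolysis genes 13 were higher (56.5%), 5 lower (21.7%) and 5 not called (median 0.27). Pkm, the last enzyme of the pathway, was at 570, 613 and 597 against 1160, 1390 and 1130 (1.03 ± 0.09, adjusted p = 5e-05). Of 48 oxidative phosphorylation subunits 23 were higher (47.9%), 8 lower (16.7%) and 17 not called (median 0.15). Of 38 ribosomal protein genes 15 were higher (39.5%), 2 lower (Rpl35 and Rpl37, 5.26%) and 21 not called (median 0.08). Rpl35 turned to 0.14 with the values as deposited. The medians of the oxidative phosphorylation and ribosomal protein lists lay close to the 0.04 of all genes. In all 4 lists of this paragraph the share higher was above the 30.9% of all genes and the share lower below their 24.8%.

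Mitotic genes tended the other way. Of 38 G2/M genes 18 were lower (47.4%, against 24.8% of all genes), 3 higher (Smc2, Dlgap5 and Bub1b) and 17 not called, with a median of -0.19 under quantile normalization, 0.00 with arrays centred on their medians and 0.30 with the values as deposited, below the median of all genes in each. Ube2c, which tags mitotic proteins for destruction, was at 1100, 1190 and 1120 against 616, 620 and 686 (-0.81 ± 0.07, adjusted p = 4.6e-05), and Cdk1, the kinase of mitotic entry, at 713, 735 and 608 against 390, 372 and 450 (-0.74 ± 0.10, adjusted p = 0.00047). Smc2 differed by 0.62 ± 0.09, but a further probe set of Smc2 was called in the opposite direction and the mean of its probe sets was at -0.16. Of 36 replication genes 12 were higher (33.3%, against 30.9% of all genes), 8 lower (22.2%, against 24.8%) and 16 not called (median 0.01). Of the CDK inhibitors, Cdkn1b (p27), which holds cells out of the cycle, was at 516, 450 and 535 against 148, 140 and 141 (-1.70 ± 0.08, adjusted p = 4.3e-06), whereas Cdkn1a (p21) was higher, at 51.7, 41.1 and 47.8 against 119, 128 and 169 (1.29 ± 0.14, adjusted p = 0.00015). The survival genes of the Bcl2 family divided likewise: Bcl2 was at 200, 164 and 240 against 47.6, 42.6 and 64.6 (-1.68 ± 0.16, adjusted p = 0.0001), Mcl1 at 656, 676 and 639 against 1210, 1410 and 1060 (0.88 ± 0.10, adjusted p = 0.00022; 0.55 over the mean of its probe sets), and the death-promoting Pmaip1 (NOXA) at 59.4, 55.5 and 54.8 against 347, 348 and 251 (2.18 ± 0.13, adjusted p = 1.1e-05).

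Inflammatory genes were partly higher and interferon genes partly lower. Of 24 NF-kB and cytokine genes 11 were higher (45.8%, against 30.9% of all genes), 3 lower (Ccl6, Tnfaip2 and Nfkbie) and 10 not called, with a median of 0.22. The neutrophil chemoattractant Cxcl2 was at 4.72, 4.09 and 3.15 against 149, 165 and 99.3 (2.92 ± 0.16, adjusted p = 8.4e-06), and Nfkbiz, a nuclear NF-kB cofactor, at 34.9, 38.7 and 36.9 against 288, 330 and 232 (2.49 ± 0.12, adjusted p = 4.9e-06). Of 42 interferon response genes 16 were lower (38.1%, against 24.8% of all genes), 6 higher and 20 not called. Their median of -0.19 turned to 0.24 with the values as deposited, where the median of all genes was 0.46. The immunity GTPase Igtp was at 330, 289 and 312 against 146, 118 and 125 (-1.17 ± 0.10, adjusted p = 4.6e-05). Of 16 genes known to vary between inbred strains 8 were lower, 0 higher and 8 not called (50% called, against 55.7% of all genes), with a median of -0.37. With the values as deposited 5 were lower and 7 higher, with a median of 0.11 against 0.46 for all genes. Nnt, a mitochondrial enzyme that is mutated in some C57BL/6 stocks, was at 458, 485 and 451 against 149, 159 and 142 (-1.53 ± 0.07, adjusted p = 3.5e-06), and Trim34a at 198, 183 and 218 against 64.6, 57.9 and 70.3 (-1.43 ± 0.10, adjusted p = 2.3e-05; -0.73 over the mean of its probe sets). The part of genetic background in the other differences was not tested.

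Genes around mTORC2 itself differed little in number. Of 22 subunits and regulators of the mTOR complexes, 6 were higher, 4 lower and 12 not called (45.5% called, against 55.7% of all genes), with a median of -0.01. The mTORC1 subunit Rptor was at 69.9, 63.8 and 69.0 against 128, 115 and 144 (0.79 ± 0.10, adjusted p = 0.00037), and Deptor, an inhibitor bound to both mTOR complexes, at 39.6, 43.7 and 37.7 against 72.5, 89.0 and 89.0 (0.82 ± 0.10, adjusted p = 0.00038). Lower were Mlst8, Lamtor1, Tsc1, a brake on mTORC1 (89.7, 106 and 91.1 against 38.8, 37.8 and 46.6; -0.97 ± 0.10, adjusted p = 0.00017, with another Tsc1 probe set called in the opposite direction and a mean over probe sets of -0.19), and Sesn1, a stress-induced inhibitor of mTORC1 (312, 284 and 330 against 124, 114 and 119; -1.26 ± 0.08, adjusted p = 1.7e-05).

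Among the kinases downstream of mTORC2 and the PI3K subunits, 5 of 25 were higher (20%, against 30.9% of all genes), 10 lower (40%, against 24.8%) and 10 not called. The median was -0.08, against 0.04 for all genes. The balance of counts rests on the scaling: with arrays centred on their medians 7 were higher and 8 lower, and with the values as deposited 14 and 5. The list median stayed below that of all genes, at 0.08 against 0.15 with centred arrays and 0.38 against 0.46 with the values as deposited. Sgk1, a kinase activated by mTORC2, was at 15.4, 18.9 and 15.3 against 138, 154 and 175 (2.40 ± 0.11, adjusted p = 3.1e-06), the largest increase of the list, with the groups far apart. Igf1r, a receptor that feeds PI3K, was lower, at 400, 413 and 388 against 80.6, 71.7 and 94.6 (-2.09 ± 0.10, adjusted p = 3.3e-06; -1.33 over the mean of its probe sets), as was Phlpp2, a phosphatase of AKT (-1.66 ± 0.12, adjusted p = 2.7e-05). Of 20 FOXO factors and targets 10 were lower (50%, against 24.8% of all genes), 5 higher (Klf2, Gadd45a, Foxo1, Sod2 and S1pr1) and 5 not called. The median was -0.35 under quantile normalization, -0.18 with arrays centred on their medians and 0.12 with the values as deposited. The medians of all genes under these scalings were 0.04, 0.15 and 0.46. Cdkn1b and Sesn1, given above, had the smallest p on this list, followed by Cited2, a coactivator that restrains hypoxia responses (means of 1220 ± 81 against 473 ± 77.2, SD, n = 3 arrays a group; -1.35 ± 0.11, adjusted p = 4.8e-05). Bcl2l11 (BIM), a death-promoting FOXO target, was at 261, 223 and 252 against 108, 111 and 137 (-0.96 ± 0.11, adjusted p = 0.00019), and Klf2 moved against the trend.

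Most differences between the fusions were also there with Rictor intact. In the 6 wild-type arrays, normalized as a set of their own and tested the same way, 5463 genes (44.7%) were called, 24.9% of genes tested higher and 19.7% lower in MLL-NRIP3. Of the 6807 genes called without Rictor, 6267 (92.1%) had the same sign with Rictor intact and 4198 were called in both, which is 61.7% of the calls without Rictor and 76.8% of those with it. Only 77 were called in opposite directions. Across all genes the differences of the 2 genotypes correlated with r = 0.77 (Spearman's coefficient 0.78); genes are not independent replicates, and the genotypes share whatever separates the array sets of the models, so no p is given. Dlk1 differed by 6.13 without and 5.50 with Rictor, Satb1 by -4.03 and -4.29, Flt3 by 2.69 and 3.40, and the sterol list had medians of 0.76 and 0.70. Without the wild-type MLL-NRIP3 arrays 1 and 2 the sterol median with Rictor intact was 1.17, with 19 of 22 higher, and the list's median difference of differences was then -0.42.

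**Figure D3:**
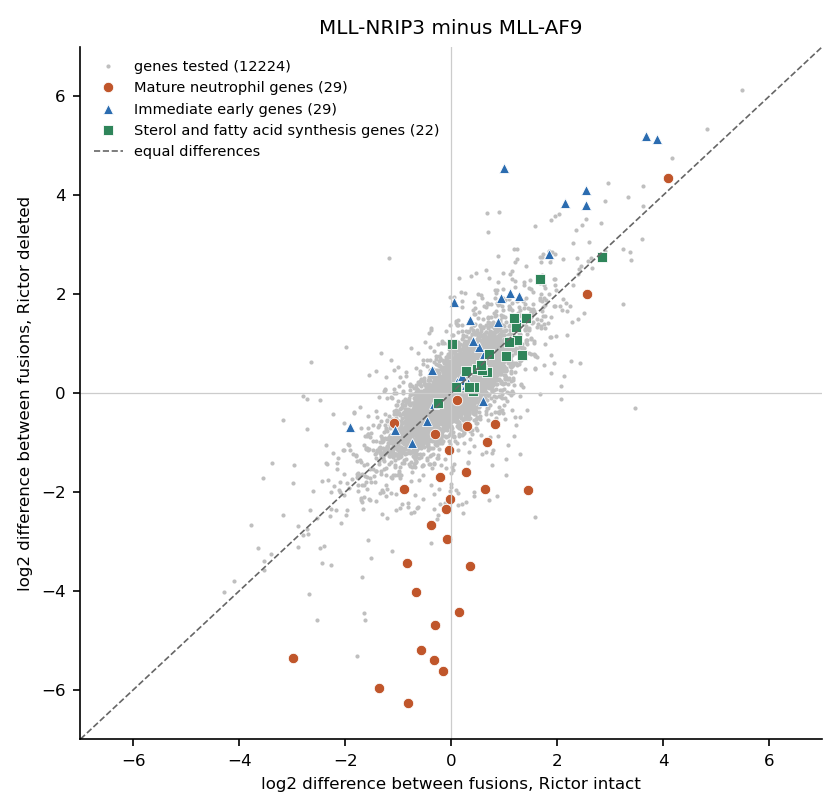
Log2 difference between MLL-NRIP3 and MLL-AF9 cells with Rictor deleted (vertical) against the same difference with Rictor intact (horizontal) for 12224 genes, with 3 gene lists marked. Sterol genes lie near the line of equal differences, as does the neutrophil-list gene at the upper right, Clec4e, while most neutrophil genes lie far below it; the immediate early gene farthest above it is Jun.

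Neutrophil genes differed between the genotypes. With Rictor intact the list had a median of -0.10, with 4 higher, 5 lower and 20 not called. The difference of differences, that is the difference between the fusions without Rictor minus that with Rictor, was tested in a fit of all 12 arrays normalized together; 587 genes were called (4.8%; 2.31% above 0 and 2.5% below 0). That count fell to between 311 and 356 when any 1 of the MLL-AF9 arrays was left out and rose to 1470 without the third wild-type MLL-NRIP3 array. Of the 29 neutrophil genes 22 were called below 0 and 0 above, with a median of -2.26. Ltf was at 356, 150 and 137 in wild-type MLL-AF9 cells, at 2130, 1880 and 1720 in their Rictor-deleted counterparts, at 623, 72.5 and 15.3 in wild-type MLL-NRIP3 cells and at 7.22, 9.08 and 10.1 in Rictor-deleted ones (difference of differences -5.47 ± 1.08, adjusted p = 0.013). Ltf was thus higher in the Rictor-deleted than in the wild-type MLL-AF9 cells, which also differ in sex, and lower than every wild-type array in MLL-NRIP3 cells, in which the wild-type arrays were widely spread. Stfa2l1 (-5.48 ± 0.53, adjusted p = 0.00014), Ngp (-5.05 ± 0.77, adjusted p = 0.0029), S100a9 (-4.62 ± 0.62, adjusted p = 0.0014) and Camp (-4.58 ± 0.85, adjusted p = 0.009) were, with Ltf, the 5 largest values below 0. Since only the MLL-AF9 RictorΔ/Δ cells lacked Xist, sex and the difference of differences cannot be told apart. Without the wild-type MLL-NRIP3 arrays 1 and 2, which leaves a single array in that group that is assumed to vary like the others, 21 of the 29 were called below 0 and Ltf came to -3.51 (adjusted p = 0.0018), and with Rictor intact 13 of the 29 were then called lower.

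**Figure D4:**
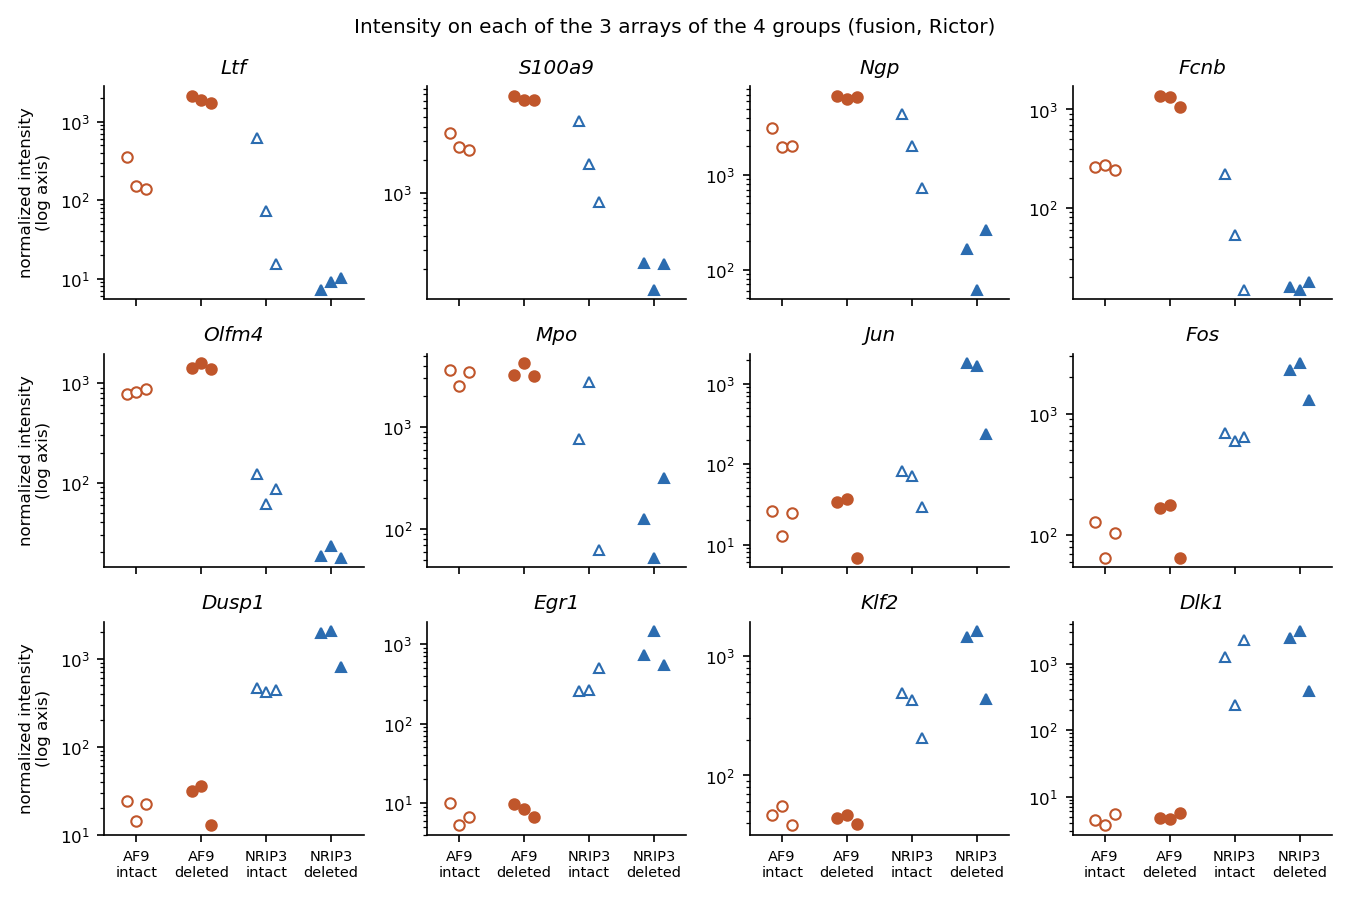
Normalized intensity (log axis, all 12 arrays normalized together) of 12 genes on each of the 3 arrays of the 4 groups; open symbols are Rictor wild type, filled symbols Rictor deleted, circles MLL-AF9 and triangles MLL-NRIP3. Ltf, S100a9, Ngp and Fcnb are highest in Rictor-deleted MLL-AF9 and lowest or among the lowest in Rictor-deleted MLL-NRIP3 cells, whereas Jun is highest on the Rictor-deleted MLL-NRIP3 arrays.

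Above 0, the largest differences of differences belonged to genes that MLL-NRIP3 cells expressed more without Rictor. Rab38, a GTPase of pigment granules, was at 6.93, 17.8 and 15.6 in wild-type and 255, 259 and 464 in Rictor-deleted MLL-NRIP3 cells, against 121, 19 and 42.7 and 27.9, 35.8 and 36.5 in MLL-AF9 cells (3.92 ± 0.54, adjusted p = 0.0016). Jun was at 81.7, 71.3 and 29.6 and then at 1790, 1670 and 240, against 26.3, 12.9 and 25.0 and 33.9, 36.9 and 6.90 (3.57 ± 0.87, adjusted p = 0.037). Glb1l2, a homologue of lysosomal galactosidase, came to 2.98 ± 0.28 (adjusted p = 9.8e-05), Psma8, a proteasome subunit of the testis, to 3.27 ± 0.28 (adjusted p = 7.9e-05), and Cpa3 to 2.91 ± 0.62 (adjusted p = 0.02). With Rictor intact, Psma8 and Cpa3 were called lower in MLL-NRIP3 cells (-2.65 and -1.98) and Rab38 was at -1.18 (adjusted p = 0.056); with Rictor deleted Psma8, Cpa3 and Rab38 were at 0.62, 0.93 and 2.74. Cpa3 was no longer called without the wild-type MLL-NRIP3 arrays 1 and 2 (2.86, adjusted p = 0.072). Among the immediate early genes, 5 (Jun, Fosb, Atf3, Socs3 and Junb) were called above 0, and 0 of the 29 below; the list's median difference was 0.53 with Rictor intact and 1.05 without. Without the wild-type MLL-NRIP3 arrays 1 and 2, Fosb (1.55, adjusted p = 0.12) and Junb (0.83, adjusted p = 0.16) were not called, and the list's median with Rictor intact was 0.30. Of the fusion targets, Hoxa5 (1.59 ± 0.24), Meis1 (0.94 ± 0.23) and Hoxa9 were called above 0, and Kit came to 0.96 (adjusted p = 0.041), or 1.04 (adjusted p = 0.061) without those 2 arrays. Meis1 (0.54, adjusted p = 0.095) and Hoxa9 (0.40, adjusted p = 0.1) were not called without them either. Prom1 was level between the fusions with Rictor intact (0.13, adjusted p = 0.53) and came to -2.40 (adjusted p = 0.0001) in this test.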

How the data were processed

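RNA from 12 samples was measured on Affymetrix mouse arrays of 45101 probe sets. The deposited values are linear intensities, 1 table column per sample; the sources used here do not give how the authors summarised and scaled them. Here 16 was added, log2 was taken, and the 6 Rictor-deleted arrays were quantile normalized. A gene was its brightest probe set among the 34958 with 1 symbol. Genes on X and Y (626) and 5344 genes under the 40th percentile were left out, and 12224 were tested with limma 3.58.1 (R 4.3.3; lmFit and eBayes with trend; Benjamini-Hochberg adjustment). The wild-type arrays were tested alike, and the difference of differences was tested on all 12 arrays. The number of arrays limits the precision; an exact permutation test of 3 against 3 cannot go below p = 0.1. The fits were tested on simulated data.

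The members and lists were chosen with earlier results of these data known. Named genes are the 15 largest increases and decreases among called genes without overlap, leaving out clone, RIKEN and predicted names, up to 5 members of a list by p, the 5 largest differences of differences each way, a fixed set of check genes, fixed cell type markers, and any gene a count of 5 or fewer refers to. Alternatives covered scaling, pseudocount, filter, probe set choice, moderation, threshold, array weights, the replicate block and leaving out arrays. Same-numbered arrays of the models correlated at 0.07, 0.14 and 0.11 in their deviations, and 1 of these is under the 0.1 set for pairing, so the arrays were not treated as paired.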

Additional observations from a re-analysis of the deposited data

Results flagged for a closer look

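For 54 genes named here, the difference between the fusions was called different with and without Rictor, by limma's test of the difference of differences over the 12 arrays, on the log2 scale. Sex of the cells cannot be told apart from the difference of differences. Of all 12224 genes tested, 587 (4.8%) were called. The named genes include the 5 largest values each way in this same test, so the count of 54 cannot be set against that share. Values were below 0 for 24 genes. The larger were -5.48 for Stfa2l1, -5.47 for Ltf, -5.05 for Ngp, -4.62 for S100a9, -4.58 for Camp, -4.57 for Fpr2, -4.39 for Stfa3, -3.86 for Itgb2l, -3.54 for Fcnb, -3.36 for S100a8, -2.96 for Penk and -2.87 for Lcn2. The smaller were -2.79 for Ighm, -2.39 for Prom1, -2.34 for Olfm4, -1.99 for Cd300lf, -1.71 for Id2, -1.48 for Mmp8, -1.37 for Mgst1, -1.28 for Clec4a2, -1.05 for Pik3r5, -0.91 for Prkcb, -0.7 for Il18r1 and -0.52 for Cxcr2. Most of the larger ones belong to products of neutrophils and their precursors.

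Values were above 0 for 30 genes. The larger were 3.92 for Rab38, 3.57 for Jun, 3.27 for Psma8, 2.98 for Glb1l2, 2.91 for Cpa3, 2.76 for Angpt1, 1.94 for Trim34a, 1.91 for Ifitm1, 1.85 for Nfkbiz, 1.83 for Prg3, 1.75 for Cxcl2, 1.71 for Fosb, 1.64 for Hdc, 1.62 for Vldlr and 1.59 for Hoxa5. The smaller were 1.51 for Itga2b, 1.29 for Wfdc17, 1.16 for Clec10a, 1.15 for Mycn, 1.13 for Atf3, 1.08 for Il17rb, 1 for Socs3, 0.98 for Acss2, 0.96 for Gata2, 0.96 for Kit, 0.94 for Junb, 0.94 for Meis1, 0.75 for C1qb, 0.66 for Hoxa9 and 0.34 for Hspa8.

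The wild-type MLL-NRIP3 arrays 1 and 2, which stood apart in their control probes, enter all of these values. Without them 43 of the 54 calls were kept and no sign turned. The 11 that were lost were C1qb (0.76, adjusted p = 0.071), Cpa3 (2.86, adjusted p = 0.072), Cxcr2 (-0.41, adjusted p = 0.063), Fosb (1.55, adjusted p = 0.12), Gata2 (0.79, adjusted p = 0.086), Hoxa9 (0.4, adjusted p = 0.1), Il17rb (1.09, adjusted p = 0.059), Junb (0.83, adjusted p = 0.16), Kit (1.04, adjusted p = 0.061), Meis1 (0.54, adjusted p = 0.095) and Mycn (0.85, adjusted p = 0.17). By more than 1.5-fold moved Camp to -3.15, Fcnb to -2.17, Fpr2 to -3.71, Id2 to -1.11, Ighm to -1.33, Itgb2l to -2.97, Jun to 4.24, Ltf to -3.51, Ngp to -3.69, Penk to -1.81, S100a8 to -2.28, S100a9 to -3.4, Stfa2l1 to -4.53 and Stfa3 to -3.56, all still called.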

How the results depend on the processing

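Without 1 array, the Rictor-deleted comparison called 5486 to 7679 genes, the wild-type comparison 3856 to 5999 and the difference of differences 311 to 1470. Values as deposited gave 8979 calls in the wild-type comparison. Testing each probe set on its own gave 12099 calls of 21842 probe sets, and adding a 2-fold minimum left 911 genes. Directions of called genes turned with the values as deposited for Ezh2 (0.063), Gp5 (0.042), Tapbp (0.059), Rpl35 (0.142) and Ptprc (0.238), and with the mean of the probe sets for Smc2 (-0.156) and Ptprc (0.132). Rictor, not called in the main setting, also turned with the mean of its probe sets (0.399), and is counted below among the calls gained. The median of the mTOR list minus that of all genes turned to 0.022 with the values as deposited and to 0.022 with arrays centred on their medians. The replicate block left 6707, 4663 and 533 calls in the 3 comparisons; each MLL-NRIP3 array correlated best with the same-numbered MLL-AF9 array, as a hint only. Over 218 named genes and 18 settings, 3845 of 3898 values kept their direction and side of the threshold, 39 lost a call, in 20 genes, and 7 gained one. Psma8 was called narrowly (adjusted p = 0.048). Dim genes near the floor have understated differences.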

Other observations

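Counts of heat shock and chaperone genes had an opposite balance with and without Rictor, though most members were not called in the difference of differences. Of 17 tested, 9 were higher in Rictor-deleted MLL-NRIP3 cells (52.9%, against 30.9% of all genes), with a median of 0.32. Lower were 4 (Hsp90aa1, Dnajb1, Hspb1 and Cacybp), or 23.5% against 24.8% of all genes. With arrays centred on their medians 9 were higher and 1 lower, and with the values as deposited 14 and 0. With Rictor intact 1 was higher and 8 were lower, with a median of -0.15, against 24.9% higher and 19.7% lower of all genes. In the difference of differences 2 of the 17 were called above 0, 0 below and 15 not called. Its median was 0.34, and 0.36 without the wild-type MLL-NRIP3 arrays 1 and 2.

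The next lists are set against all genes, of which 30.9% were higher and 24.8% lower, with a median of 0.04. Of 30 glutathione and redox genes, 12 were higher (40%) and 8 lower (26.7%) in Rictor-deleted MLL-NRIP3 cells, with a median of 0.05, close to all genes. Of 29 lysosome and autophagy genes, 11 were higher (37.9%) and 5 lower (17.2%: Ctsh, Ctsc, Map1lc3b, Atg5 and Tfeb), with a median of 0.16. Of 31 DNA damage response genes, 14 were higher (45.2%) and 6 lower (19.4%), with a median of 0.20. Of 14 tested MHC class I presentation genes, 8 were lower (57.1%) and 3 higher (21.4%: H2-Q10, Tap1 and Tap2), with a median of -0.41. That median turned to 0.05 with the values as deposited, where the median of all genes was 0.46, so the list stayed below all genes.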
